A study of Mus musculus with 4 samples.

Results

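Wnt ligands, their receptors and their inhibitors were followed in aortas of mice labelled as GGPPS knockouts and of wild-type mice. Members were set by a rule on gene symbols. The rule uses no measured value, but it was chosen with earlier results of these data known. It takes all Wnt, Frizzled (Fzd), secreted frizzled-related (Sfrp), Dickkopf (Dkk 1 to 4) and R-spondin (Rspo) genes. It also takes Lgr4, Lgr5, Lgr6, and a fixed set of co-receptors, inhibitors and nuclear factors. The rule found 59 genes of the 24344 symbols in the files. RNA sequencing gave 2 libraries from GGPPS knockout mice and 2 from wild-type mice, all C57BL/6, of both sexes and 3 weeks old. GGPPS, gene symbol Ggps1, makes geranylgeranyl diphosphate, the lipid that anchors many small GTPases to membranes. The allele, the cell type that lost it and the number of mice behind a library are not given in the sources used here. The labels do not say that the libraries of a genotype came from separate mice or pools. The wild-type libraries did differ in their mix of sexes, as given below. P-values thus measure only the spread between these libraries, and how much of it is technical is not known. Values are FPKM, fragments scaled for transcript length and library total.

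Wnt proteins are secreted, lipid-modified ligands that bind Frizzled receptors together with the co-receptors LRP5 and LRP6. Binding holds back a cytoplasmic complex built on AXIN that otherwise marks beta-catenin (Ctnnb1) for destruction, and beta-catenin then acts in the nucleus with TCF and LEF factors. Some Wnts, WNT5A among them, act mainly through branches that do not need beta-catenin. Secreted inhibitors bind the ligands (SFRP proteins, WIF1) or the co-receptors (Dickkopf proteins, sclerostin), while R-spondins and their LGR receptors keep Frizzled proteins at the cell surface. In arteries the pathway is known for effects on smooth muscle growth and on calcification.

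Ggps1 had 1.18 and 1.07 FPKM in knockout and 8.96 and 10.6 FPKM in wild type, the direction of the labels (log2 fold change -2.34, limma adjusted p = 3.5e-09). The columns summed to 611767 and 632918 FPKM in knockout and to 515927 and 520478 FPKM in wild type. Xist and the Y-linked gene Ddx3y were both read in each library, with Xist at 21.9 and 35.2 FPKM in knockout and at 8.45 and 30.0 FPKM in wild type, so each library held RNA of both sexes and the mix differed within wild type. A gene was tested where 2 or more libraries reached 1 FPKM, and of 12314 such genes limma called 65.7% at an adjusted p under 0.05, 35.2% as higher and 30.6% as lower in knockout. With the columns scaled to equal totals the split was 3116 higher and 5580 lower, against 4332 and 3764 as deposited, and the median change over all genes in the test was -0.20 in place of 0.03 on the log2 scale.

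The Wnt genes of the knockout aorta were mostly at lower levels. Of the 59 members 31 passed the filter, and 23 of these fell, 2 rose and 6 did not pass the test, beside 30.6% of all tested genes lower and 35.2% higher. Their median log2 fold change was -0.85, beside 0.03 over all tested genes, and -1.05 beside -0.20 with equal column totals. With a pseudocount of 5 FPKM it was -0.49 beside 0.02, and with no filter, over 54 members, it was -0.12 beside 0.01. By the ratio of mean FPKM, 15 of the 31 were called lower and at least 2 times as high in wild type, beside 11.3% of all tested genes. The filter itself bears on this count. Rspo3, Wnt2b and Axin2 passed it through wild type alone and Dkk2 through knockout alone, so they had to differ. Among the 26 members with at least 1 FPKM in every library, 20 fell, 1 rose and 5 did not pass. Both knockout libraries lay below both wild-type libraries for 23 members, beside 39.6% of all tested genes, and above both for Dkk2, Sfrp2 and Sfrp4, beside 43.6%.

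**Figure D1:**
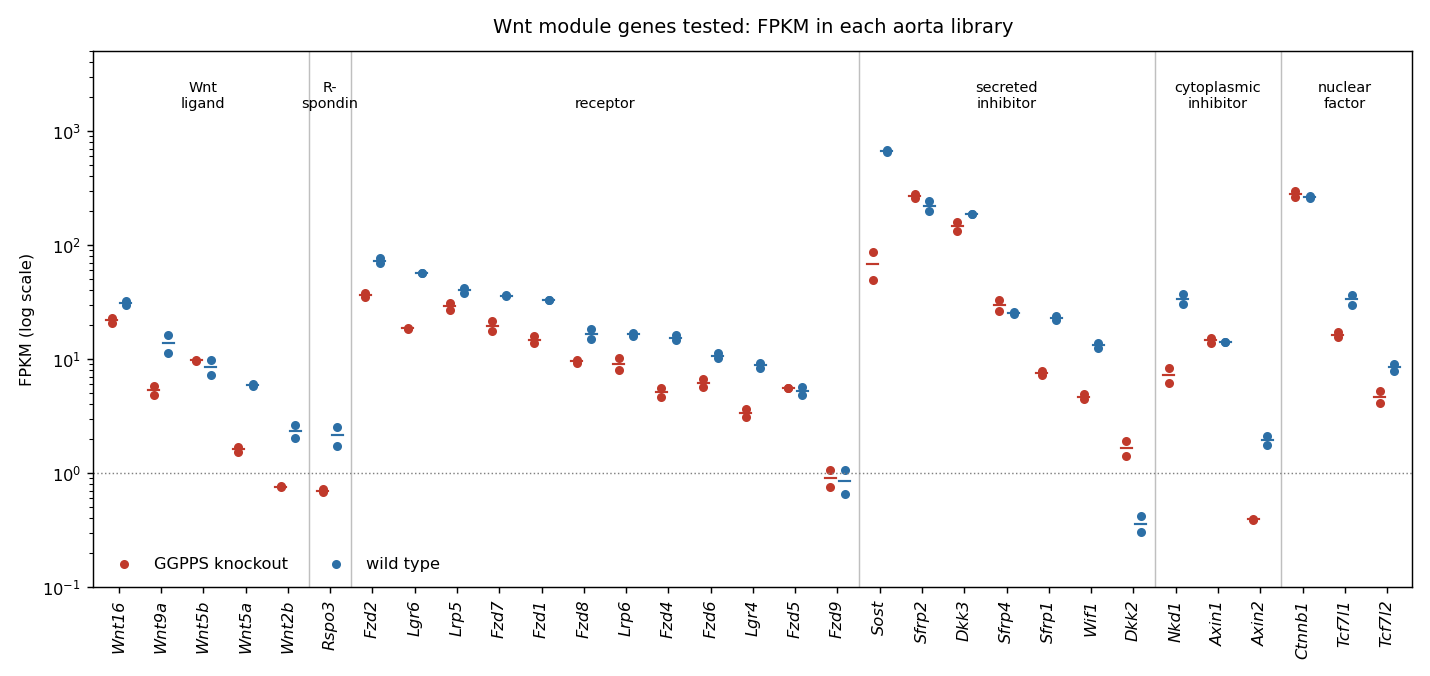
FPKM (log scale) of the 31 tested Wnt genes in each library, grouped by role, with knockout to the left of wild type for each gene; points are libraries, short bars are means (n = 2 per genotype) and the dotted line marks 1 FPKM. Knockout points lie below wild-type points for 23 genes, with the widest gap at Sost, while the points of Ctnnb1, Axin1, Fzd5, Fzd9 and Wnt5b overlap.

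Markers of the cell types in the vessel wall moved in the same libraries. Their counts are to be read beside 30.6% of all tested genes lower and 35.2% higher in knockout. Contractile smooth muscle markers fell in 10 of 10 cases and summed to 4966 and 6587 FPKM in knockout against 21009 and 23385 FPKM in wild type. Acta2, smooth muscle actin, had 1049 and 1791 FPKM in knockout and 6277 and 7437 FPKM in wild type. Endothelial markers fell in 8 of 9 tested cases (sums of 105.4 and 120.4 FPKM in knockout, 289.8 and 301.9 FPKM in wild type), Pecam1 among them at 34.1 and 46.0 FPKM in knockout and 147 and 158 FPKM in wild type, and pericyte markers in 5 of 5. Fibroblast markers fell in 7 and rose in 2 of 10 cases, with overlapping sums of 3712 and 3493 FPKM in knockout and 4052 and 3541 FPKM in wild type. Most of each sum came from Col1a1, which rose, and Col1a2, which did not pass the test. Col1a1 had 1850 and 1575 FPKM in knockout and 1329 and 1046 FPKM in wild type. Col1a2 had 1236 and 1247 FPKM in knockout and 1541 and 1228 FPKM in wild type. Macrophage markers rose in 10 of 10 cases, summing to 450.3 and 377 FPKM in knockout against 60.2 and 61.4 FPKM in wild type. Of these 10, 3 passed the filter through knockout alone, so they had to differ. Lyz2 was at 165 and 138 FPKM in knockout and 19.9 and 22.2 FPKM in wild type. In bulk tissue, fewer cells of a type and less RNA per cell cannot be told apart, and the part of these shifts in the changes of the Wnt genes was not tested.

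Promoters are shown for 3 members because their genes are the most abundant ligand (Wnt16), the inhibitor with the largest fall (Sost) and a feedback inhibitor that beta-catenin is known to induce (Axin2). Each run is the 250 bases before the RefSeq start on GRCm38.p6, which is the mm10 assembly, written 5′ to 3′ on the gene's strand, with CCAAT in either direction in capitals.
Wnt16, chr6:22287977-22288226, plus strand: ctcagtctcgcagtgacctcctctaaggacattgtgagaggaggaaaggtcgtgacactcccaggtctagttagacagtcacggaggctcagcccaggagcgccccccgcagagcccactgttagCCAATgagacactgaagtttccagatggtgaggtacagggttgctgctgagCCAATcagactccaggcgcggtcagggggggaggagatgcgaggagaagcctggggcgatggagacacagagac
Sost, chr11:101967016-101967265, minus strand: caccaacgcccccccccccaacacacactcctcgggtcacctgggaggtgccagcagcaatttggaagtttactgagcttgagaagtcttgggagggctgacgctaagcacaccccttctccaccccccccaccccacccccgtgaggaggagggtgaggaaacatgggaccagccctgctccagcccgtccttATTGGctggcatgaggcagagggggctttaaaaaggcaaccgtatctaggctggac
Axin2, chr11:108920099-108920348, plus strand: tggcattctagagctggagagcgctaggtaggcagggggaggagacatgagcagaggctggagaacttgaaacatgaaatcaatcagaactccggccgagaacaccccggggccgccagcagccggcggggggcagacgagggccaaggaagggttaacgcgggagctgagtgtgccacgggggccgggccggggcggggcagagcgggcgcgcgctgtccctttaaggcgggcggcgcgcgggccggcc
The TCF/LEF words CTTTGAA and CTTTGAT were searched on both strands of the RefSeq windows, which also hold the 50 bases after the start. They were in none of the 15 windows of 14 members that fell and in 5.68% of the 11994 windows of tested genes. CCAAT, searched the same way, was in 8 of the 15 windows and in 37.2% of the windows of tested genes. A word is a match of letters and not a bound site, and a window without one says nothing of sites elsewhere.

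Ligands were few and mostly lower. Of 19 Wnt genes 5 passed the filter and 4 of these fell, beside 30.6% of all tested genes. Among the 4, Wnt2b passed the filter through wild type alone, so it had to differ. The 19 summed to 38.9 and 42.7 FPKM in knockout against 68.2 and 58.0 FPKM in wild type. Wnt16, a ligand known from bone and joints, was the most abundant ligand in every library, with 52.8% and 54.1% of the sum in knockout and 47.5% and 51.3% in wild type. It stood at 20.5 and 23.1 FPKM in knockout and at 32.4 and 29.7 FPKM in wild type, a log2 fold change of -0.49 (SE 0.11, limma adjusted p = 0.00156) and of -0.75 with equal column totals. Wnt5a, the best known ligand of the branches without beta-catenin, fell most by ratio, 3.67-fold, to 1.53 and 1.69 FPKM in knockout against 6.03 and 5.77 FPKM in wild type (log2 fold change -1.40, SE 0.12, limma adjusted p = 3.11e-07). The libraries within each genotype lay close together for both genes. Both knockout libraries lay below both wild-type libraries, as in 39.6% of all tested genes.

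Wnt9a, which acts in joint formation, was at 4.80 and 5.81 FPKM in knockout and at 16.3 and 11.4 FPKM in wild type (log2 fold change -1.22, SE 0.16, limma adjusted p = 1.18e-05). Its wild-type libraries differed from each other more than its knockout libraries did. Wnt2b had 0.764 and 0.749 FPKM in knockout and 2.04 and 2.61 FPKM in wild type (log2 fold change -0.92, SE 0.13, limma adjusted p = 2.83e-05). Wnt5b, the close relative of Wnt5a, did not pass the test. It was at 9.88 and 9.67 FPKM in knockout and at 9.84 and 7.29 FPKM in wild type, a log2 fold change of 0.18 with a 95% interval of -0.11 to 0.48 (limma adjusted p = 0.255). The difference between the changes of Wnt5a and Wnt5b was not tested. Rspo3, the one R-spondin that passed the filter, had 0.675 and 0.725 FPKM in knockout and 1.73 and 2.54 FPKM in wild type (log2 fold change -0.87, limma adjusted p = 9.18e-05).

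Most receptors fell. Of 15 receptor and co-receptor genes 12 passed the filter, and 10 of these were lower, with none higher. Over all tested genes 30.6% were lower and 35.2% higher. The 10 Frizzled genes summed to 95.2 and 101.2 FPKM in knockout and to 191.9 and 189.8 FPKM in wild type. Fzd2, the most abundant Frizzled gene in all 4 libraries, had 37.5 and 34.9 FPKM in knockout against 76.1 and 69.5 FPKM in wild type (log2 fold change -0.99, SE 0.10, limma adjusted p = 1.93e-06). Fzd4, which also serves as the receptor of norrin in blood vessel growth, had 4.66 and 5.51 FPKM in knockout and 14.6 and 16.1 FPKM in wild type (log2 fold change -1.43, SE 0.13, limma adjusted p = 3.28e-07). It had the largest change of the tested Frizzled genes.

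Fzd1 was at 13.7 and 15.8 FPKM in knockout and at 32.6 and 32.9 FPKM in wild type, and Fzd7 at 17.6 and 21.4 FPKM in knockout and at 35.4 and 36.4 FPKM in wild type. Their log2 fold changes were -1.11 and -0.85, and those of Fzd6 and Fzd8 were -0.71 and -0.74. Fzd6 had 5.67 and 6.66 FPKM in knockout and 11.2 and 10.2 FPKM in wild type. Fzd8 had 9.21 and 9.79 FPKM in knockout and 15.0 and 18.3 FPKM in wild type, and its log2 fold change was -0.46 once length and GC trends were taken out. None of these genes overlapped between genotypes. Both knockout libraries lay below both wild-type libraries for each, as in 39.6% of all tested genes. Fzd5 did overlap, with 5.58 and 5.57 FPKM in knockout and 5.71 and 4.82 FPKM in wild type (95% interval of the log2 fold change -0.20 to 0.35, limma adjusted p = 0.63), although it was called higher, by 0.44, once length and GC trends were taken out (limma adjusted p = 0.00445). Its share of the summed Frizzled FPKM was 5.86% and 5.50% in knockout and 2.98% and 2.54% in wild type. Fzd9 had 0.757 and 1.07 FPKM in knockout and 0.656 and 1.05 FPKM in wild type and did not pass the test.

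The R-spondin receptors Lgr6 and Lgr4 fell. Lgr6 had nearly the same value within each genotype, 18.7 and 18.5 FPKM in knockout and 57.0 and 57.1 FPKM in wild type, a log2 fold change of -1.57 (SE 0.10, limma adjusted p = 1.87e-08). Lgr4 had 3.11 and 3.66 FPKM in knockout and 8.41 and 9.22 FPKM in wild type (log2 fold change -1.16, limma adjusted p = 2.66e-06). The co-receptors were lower too. Lrp6 had 7.93 and 10.2 FPKM in knockout and 16.0 and 16.9 FPKM in wild type, a log2 fold change of -0.81 (SE 0.13, limma adjusted p = 9.6e-05) and of -0.40 once length and GC trends were taken out. Lrp5 had 27.1 and 30.8 FPKM in knockout and 38.2 and 41.7 FPKM in wild type (log2 fold change -0.45, limma adjusted p = 0.0026). The Lrp5 call is the least firm of the receptors. It ended when wild-type library 2 was left out (-0.39, limma adjusted p = 0.0578), and the value was 0.10 once length and GC trends were taken out (limma adjusted p = 0.459). With equal column totals it was -0.71.

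**Figure D2:**
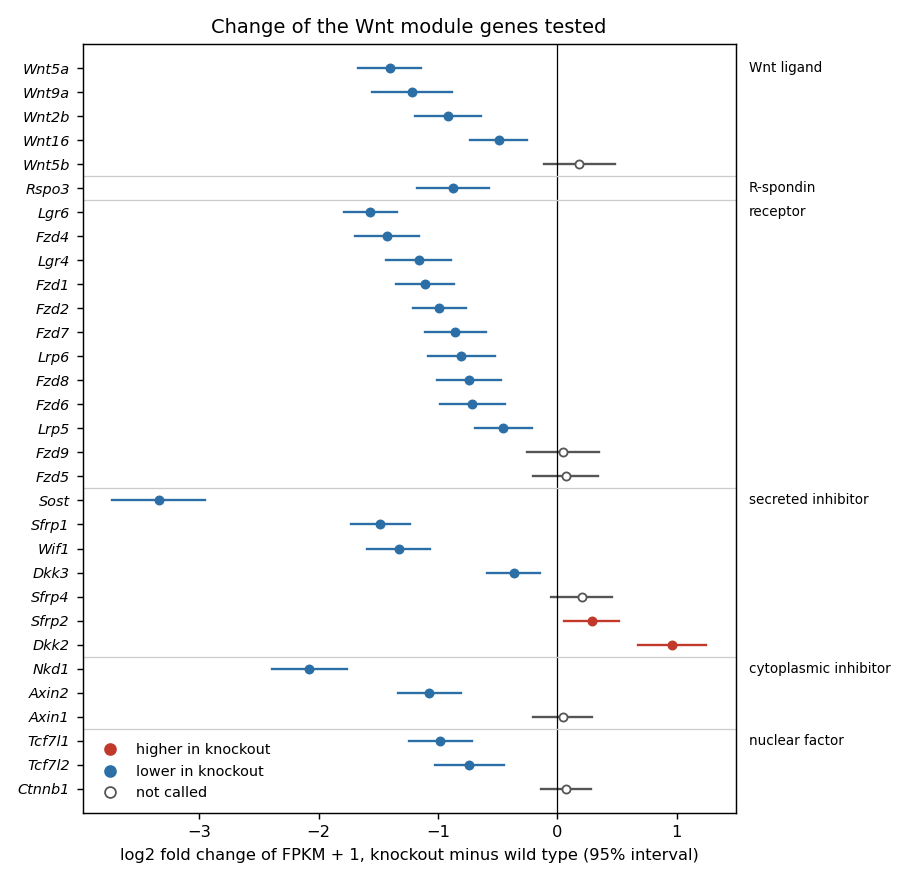
Log2 fold change of FPKM + 1, knockout minus wild type, for the 31 tested Wnt genes by role; points are limma estimates, lines are 95% intervals from 2 libraries per genotype, and open points did not pass the test. Intervals lie below 0 for 23 genes, and the receptors run from -1.57 for Lgr6 to 0.07 for Fzd5.

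Among secreted inhibitors Sost fell most. The gene encodes sclerostin, a blocker of LRP5 and LRP6 best known from osteocytes, and lies on mm10 chromosome 11, 101962458 to 101967015, minus strand, with 2 exons. In knockout it stood at 48.9 and 86.2 FPKM and in wild type at 682.9 and 652.5 FPKM, 9.89-fold lower by the ratio of means (log2 fold change -3.34, SE 0.18, limma adjusted p = 2.91e-09). The knockout libraries differed from each other by more than the wild-type libraries did on the log scale. With knockout library 1 left out the log2 fold change was -2.94, and with knockout library 2 left out it was -3.74. Sost took 10.03% and 15.3% of the summed FPKM of the 12 secreted inhibitors in knockout, behind Sfrp2 and Dkk3. Its share in wild type was 58.2% and 59.1%, and there it was the most abundant member of the whole set.

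Bone markers were read beside Sost, whose best known source is the osteocyte. The 8 osteoblast and osteocyte markers summed to 2.37 and 2.38 FPKM in knockout and to 7.53 and 10.6 FPKM in wild type. Most of the wild-type sum was Alpl, which other tissues also make, at 0.758 and 0.979 FPKM in knockout and 5.42 and 8.05 FPKM in wild type. Phex, an osteocyte gene, was the other marker that passed the filter. Alpl and Phex both passed it through wild type alone, so they had to differ. Phex had 0.322 and 0.481 FPKM in knockout and 1.25 and 1.46 FPKM in wild type, and it fell (log2 fold change -0.75, limma adjusted p = 0.000128). The other 6 markers stayed under 1 FPKM in every library, with Mepe listed at 0, Dmp1 at or under 0.0959 FPKM and Bglap at or under 0.18 FPKM. The part of bone cells in the level of Sost was not tested.

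Levels of other secreted inhibitors moved less and not in one direction. Sfrp1, which binds Wnt proteins, had 7.25 and 7.79 FPKM in knockout and 23.7 and 21.9 FPKM in wild type (log2 fold change -1.48, SE 0.12, limma adjusted p = 9.98e-08). Wif1, another Wnt-binding protein, had 4.42 and 4.89 FPKM in knockout and 12.5 and 13.9 FPKM in wild type (log2 fold change -1.33, SE 0.12, limma adjusted p = 5.28e-07). Both genes thus stood about 3 times as high in wild type, with ratios of means of 3.04 and 2.84. Dkk3, a divergent Dickkopf relative, had 134 and 158 FPKM in knockout and 187 and 188 FPKM in wild type, a log2 fold change of -0.37 (limma adjusted p = 0.0065) and of -0.63 with equal column totals.

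Sfrp2 and Dkk2 were the members called higher. Sfrp2 had 259 and 279 FPKM in knockout and 243 and 199.9 FPKM in wild type (log2 fold change 0.29, SE 0.11, limma adjusted p = 0.0307). This call is weak, since it ended in 8 of 14 alternatives, among them equal column totals (0.02, limma adjusted p = 0.85), quantile normalization (-0.01), and leaving out knockout library 1 (0.34, limma adjusted p = 0.0672), knockout library 2 (0.23, 0.165) or wild-type library 2 (0.15, 0.425). Dkk2, a Dickkopf inhibitor, was low throughout, at 1.40 and 1.92 FPKM in knockout and at 0.302 and 0.417 FPKM in wild type (log2 fold change 0.96, SE 0.13, limma adjusted p = 2.41e-05). Sfrp4 had 32.6 and 26.6 FPKM in knockout and 24.9 and 25.9 FPKM in wild type, and its interval of -0.05 to 0.46 on the log2 scale included 0. Its value was 0.06 with knockout library 1 left out, and 0.35 with knockout library 2 left out, when it was called higher (limma adjusted p = 0.0164). The 12 inhibitors together summed to 488 and 564 FPKM in knockout and to 1174 and 1103 FPKM in wild type. Most of the gap between these sums was Sost. It made up 10.03% and 15.3% of the sum in knockout and 58.2% and 59.1% in wild type.

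**Figure D3:**
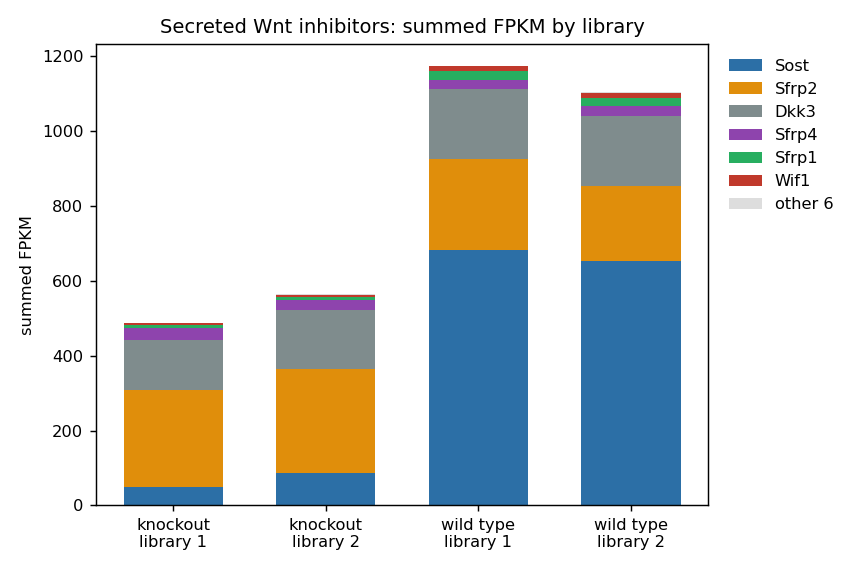
Summed FPKM of the 12 secreted Wnt inhibitors in each library, knockout at left and wild type at right, with each colour a gene and the other 6 genes in 1 segment. The sums were 488 and 564 FPKM in knockout and 1174 and 1103 FPKM in wild type, and the Sost segment is 48.9 and 86.2 FPKM in knockout and 682.9 and 652.5 FPKM in wild type.

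Among cytoplasmic inhibitors, Nkd1 and Axin2 fell and Axin1 did not pass the test. Nkd1, which binds Dishevelled, had 6.15 and 8.37 FPKM in knockout and 30.3 and 37.2 FPKM in wild type, 4.65-fold lower (log2 fold change -2.08, SE 0.14, limma adjusted p = 3.33e-08). Axin2, a scaffold of the beta-catenin destruction complex, had 0.386 and 0.398 FPKM in knockout and 2.10 and 1.77 FPKM in wild type, 4.94-fold lower by the ratio of means (log2 fold change -1.07, SE 0.12, limma adjusted p = 4.2e-06). Both are known as feedback genes that Wnt signalling through beta-catenin induces. Axin1, the constitutive scaffold, had 13.9 and 15.2 FPKM in knockout and 14.0 and 14.1 FPKM in wild type (95% interval of the log2 fold change -0.20 to 0.29, limma adjusted p = 0.739). Its knockout and wild-type libraries overlapped.

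Among nuclear members, Tcf7l1 and Tcf7l2 fell and Ctnnb1 did not pass the test. Ctnnb1, beta-catenin itself, was at 262 and 295 FPKM in knockout and at 258 and 271 FPKM in wild type, and the libraries overlapped (log2 fold change 0.07, 95% interval -0.14 to 0.28, limma adjusted p = 0.529). Its sign was negative with equal column totals (-0.19) and with quantile normalization, where it was called lower (-0.24, limma adjusted p = 0.0323). Tcf7l1, a TCF factor known mainly as a repressor, had 17.2 and 15.5 FPKM in knockout and 36.7 and 29.9 FPKM in wild type (log2 fold change -0.98, SE 0.12, limma adjusted p = 9.48e-06). Tcf7l2 had 5.19 and 4.14 FPKM in knockout and 7.83 and 8.998 FPKM in wild type (log2 fold change -0.74, SE 0.13, limma adjusted p = 0.000279). Both TCF genes were lower in each knockout library than in each wild-type library, as were 39.6% of all tested genes.

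The other 28 members stayed under 1 FPKM in every library and were not in the main test. Rspo4, Dkk4, Wnt3a, Wnt7b and Wnt8a were listed at 0 in all 4 libraries, and the highest value of any of the 28 was 0.933 FPKM, for Tcf7 in knockout library 2. With no filter, 4 were called higher and 3 lower, beside 26.3% higher and 21.6% lower among the 17542 genes then tested, and 16 were not called. Tcf7, a TCF factor best known from T cells, had 0.753 and 0.933 FPKM in knockout and 0.322 and 0.331 FPKM in wild type (limma adjusted p = 0.0039 with no filter). Wnt10a was listed at 0.258 and 0.474 FPKM in knockout and at 0 in both wild-type libraries, and Notum, an enzyme that removes the lipid of Wnt proteins, at 0.102 and 0.139 FPKM in knockout and at 0 in wild type. Rspo2 was the fourth gene called higher. Sostdc1, the closest relative of Sost, had 0.0210 and 0.0471 FPKM in knockout and 0.191 and 0.176 FPKM in wild type and was called lower, as were Wnt6 and Nkd2. Lef1, Lgr5, Dkk1 and Fzd10 stayed under 0.1 FPKM in every library.

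Wnt pathway genes outside the symbol rule changed in both directions. Of 71 such genes in the files 57 passed the filter, and 31 fell, 7 rose and 19 did not pass the test, beside 30.6% of all tested genes lower and 35.2% higher, with a median log2 fold change of -0.36 beside 0.03 over all tested genes. Among the 31, Daam2 passed the filter through wild type alone, so it had to differ. The count of falls was 42 with equal column totals, beside 45.3% of all tested genes, and 22 once length and GC trends were taken out, beside 28.6%. Counts by class are to be read beside the same 30.6% lower and 35.2% higher. Of the genes for Wnt secretion, Porcn fell and Wls did not pass the test. Wls, the carrier of Wnt proteins to the surface, had 70.2 and 77.7 FPKM in knockout and 72.6 and 74.6 FPKM in wild type (limma adjusted p = 0.966), while Porcn, the enzyme that attaches their lipid, fell by 0.83 on the log2 scale (limma adjusted p = 9.76e-05). Tpbg, grouped with them for counting, rose by 0.94 (limma adjusted p = 3.97e-05).

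Extracellular regulators gave 6 falls and 1 rise among 7 tested. Frzb, a secreted frizzled-related protein outside the symbol rule, rose to 47.7 and 44.2 FPKM in knockout against 10.9 and 16.2 FPKM in wild type (log2 fold change 1.71, SE 0.15, limma adjusted p = 2.95e-07). The glypican Gpc3 fell to 6.62 and 11.3 FPKM in knockout against 35.8 and 31.5 FPKM in wild type (log2 fold change -1.84, SE 0.18, limma adjusted p = 7.77e-07). Gpc4 and Bambi also fell, by 0.69 and 0.94 on the log2 scale. Of the Dishevelled genes, Dvl3 fell by 0.91 (limma adjusted p = 7.33e-06), whereas Dvl1 had 77.9 and 79.5 FPKM in knockout and 89.6 and 84.3 FPKM in wild type (limma adjusted p = 0.218) and Dvl2 had 20.05 and 19.4 FPKM in knockout and 22.5 and 19.7 FPKM in wild type (0.506). With equal column totals both Dvl1 and Dvl2 were called lower (limma adjusted p = 0.00194 and 0.0135). Dact3, a Dishevelled antagonist, had 57.8 and 52.2 FPKM in knockout and 202 and 163 FPKM in wild type (log2 fold change -1.71, limma adjusted p = 2.58e-08), and its relative Dact1 fell by 1.07. Of the casein kinases that act on Dishevelled, Csnk1d fell by 0.35, which missed the threshold when wild-type library 1 was left out (limma adjusted p = 0.166). Csnk1e had 28.8 and 32.9 FPKM in knockout and 35.6 and 35.2 FPKM in wild type and did not pass the test, but it was called lower with equal column totals, with quantile normalization and without knockout library 2 (limma adjusted p = 0.00148, 0.0163 and 0.0277).

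The destruction complex had 2 falls, 0 rises and 6 genes that did not pass among 8 tested, a share of falls near the 30.6% of all tested genes. Amer1 fell by 0.71 on the log2 scale, and Tnks by 0.36, a call that ended in 5 of 14 alternatives, among them leaving out knockout library 1 or either wild-type library, and taking out length and GC trends, where the value was 0.05. Csnk1a1, the casein kinase that starts the marking of beta-catenin, had 68.5 and 77.5 FPKM in knockout and 74.8 and 84.1 FPKM in wild type, with limma adjusted p = 0.335, and 0.00439 with equal column totals and 0.0185 with quantile normalization. Gsk3a had 40.8 and 39.3 FPKM in knockout and 42.6 and 42.0 FPKM in wild type, with limma adjusted p = 0.519, and 0.00768 with equal column totals. The list of nuclear partners of beta-catenin and TCF factors gave falls in 8 of 11 cases. Bcl9l led with a log2 fold change of -1.20 (limma adjusted p = 6.57e-07), which was -0.66 once length and GC trends were taken out. Bcl9 and Tle4 fell as well, by 0.77 and 0.84. The list also counted Ctnnd1, a separate catenin and not such a partner, which fell by 0.73. The repressors Tle1 and Tle3 fell by 0.36 and 0.51, and both missed the threshold when wild-type library 1 was left out (limma adjusted p = 0.212 and 0.0923) or once length and GC trends were taken out (0.106 and 0.98). Cby1 had 30.03 and 27.9 FPKM in knockout and 25.04 and 27.6 FPKM in wild type, Pygo2 had 23.8 and 21.5 FPKM in knockout and 22.5 and 20.3 FPKM in wild type, and neither passed the test. Ror1 was the only one of 3 tested other Wnt receptors to fall (-0.85), while Ryk had 26.4 and 31.5 FPKM in knockout and 28.0 and 27.8 FPKM in wild type. Planar polarity genes fell in 6 of 9 cases with Prickle1 first (-1.40, limma adjusted p = 2.96e-07). Among the 6, Daam2 passed the filter through wild type alone, so it had to differ. The calls of Celsr2, Fat4 and Daam2 in that list ended once length and GC trends were taken out (limma adjusted p = 0.0877, 0.0557 and 0.459).

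Genes often read as beta-catenin targets went both ways, with 5 rises and 3 falls among 9 tested, beside 35.2% higher and 30.6% lower of all tested genes. The share of falls was near that of all genes. Myc, a transcription factor of growth, had 24.3 and 26.9 FPKM in knockout and 1.29 and 1.89 FPKM in wild type, 16.1-fold higher by the ratio of means (log2 fold change 3.37, SE 0.14, limma adjusted p = 2.07e-10). Ccnd1, cyclin D1, rose 7.58-fold, the adhesion receptor Cd44 5.07-fold and the matricellular gene Wisp1 3.89-fold. Bmp4, Wisp2 and Msx1 fell, by 0.89, 0.84 and 0.58 on the log2 scale. Markers of cycling cells were higher in 5 of 5 cases in the same libraries, with summed levels of 74.8 and 72.9 FPKM in knockout and 8.58 and 6.03 FPKM in wild type, and their part in these rises was not tested. The Twist1 call (0.32, limma adjusted p = 0.0185) ended in 5 of 14 alternatives, among them leaving out knockout library 1 or wild-type library 2.

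**Figure D4:**
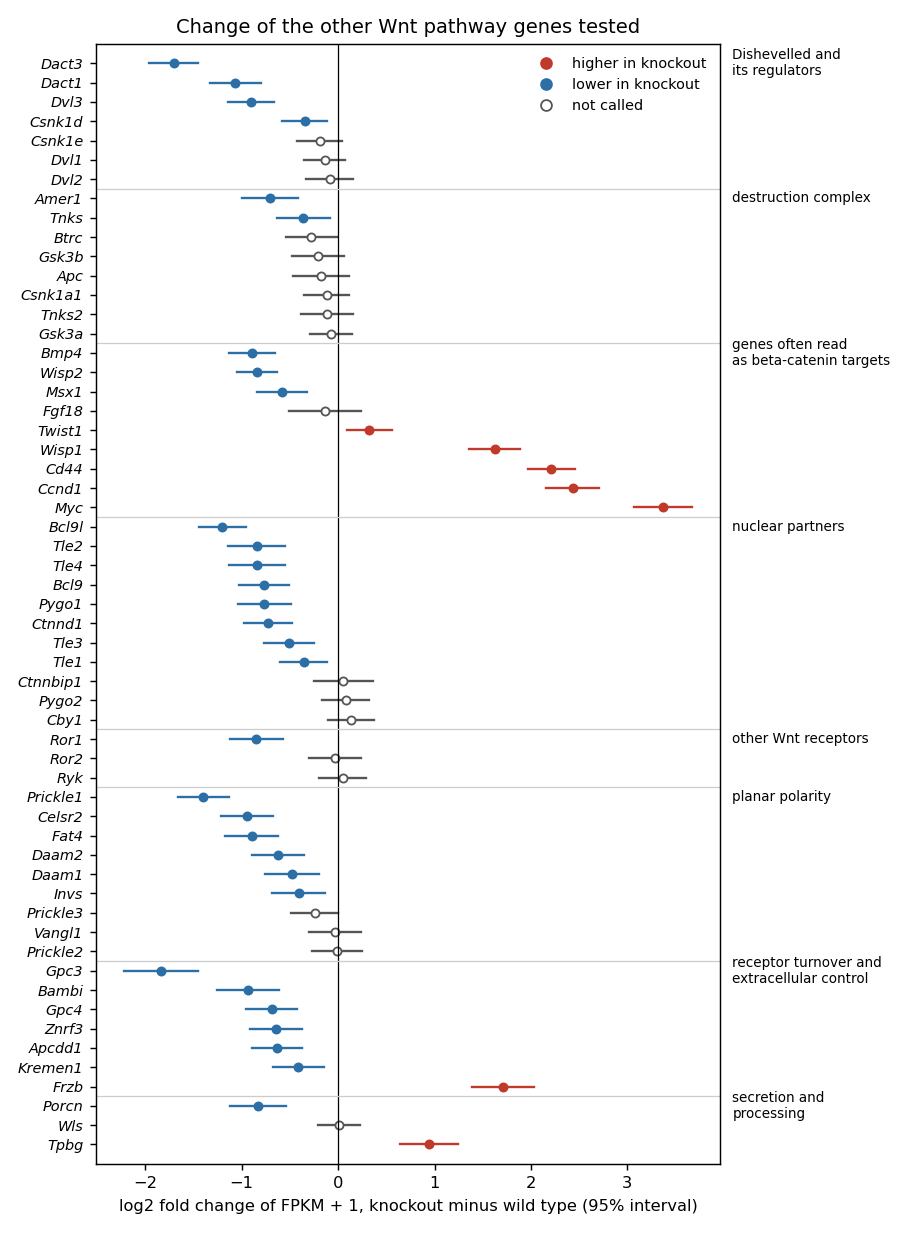
Log2 fold change of FPKM + 1, knockout minus wild type, for the 57 tested Wnt pathway genes outside the symbol rule, by class; points are limma estimates, lines are 95% intervals from 2 libraries per genotype, and open points did not pass the test. Most classes lie at or below 0, while Myc (3.37), Ccnd1, Cd44, Wisp1, Frzb, Tpbg and Twist1 lie above it.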

How the data were processed

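The authors deposited 1 file per library with FPKM values per gene symbol, per the file headers, which misspell the unit. Build mm10 and the tools DESeq2 1.16.1, featureCounts 1.5.0-p3 and HISAT2 2.0.5 are listed, with no role, per the submitters' processing notes. The program that made the FPKM, and whether strand was used, are not given in the sources used here. Of the 31 tested members 8 share exon sequence with a gene on the opposite strand (Axin2, Ctnnb1, Fzd5, Fzd6, Rspo3, Sfrp2, Tcf7l1 and Wnt5a), whose reads may not be told apart. No step of whole fragments was found: under 0.3 FPKM the most frequent ratio within a genotype covered at most 0.32% of genes. Depth is thus unknown, and no interval that needs it is given.

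Libraries were grouped by genotype label. limma 3.58.1 (R 4.3.3, intensity trend) was fitted on log2(FPKM + 1) to the 12314 genes that reached 1 FPKM in 2 or more libraries, with Benjamini-Hochberg adjustment over all of them, and was checked on simulated data. Fold changes on this scale understate those of low genes; a fold is the ratio of mean FPKM. An exact permutation test of 2 against 2 cannot go below p = 0.333, so none was used. Members, lists and tests were chosen with earlier results of these data known. Values per library are given for called members with a mean of at least 5 FPKM, the 10 largest changes and the most abundant member of each role; other pathway genes were named by up to 4 smallest p per class or a mean of at least 20 FPKM. Msx1 was named after its values were seen. So were the markers Phex, Alpl, Mepe, Dmp1, Bglap, Sox9, Comp, Hapln1, Acan, Cidea, Col1a1 and Col1a2. Positions are from GENCODE M21, and promoters from RefSeq, which held 39 of the 59 members.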

Additional observations from a re-analysis of the deposited data

How the results depend on the processing

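Alternatives were pseudocounts of 0.1 and 5 FPKM, no filter or one of 5 FPKM, equal column totals, quantile normalization, no intensity trend, robust estimation, each library left out in turn and, added after the data were seen, removal of length and GC trends. The count of members lower in knockout was 23, and 20 to 26 under these alternatives; with 1 library left out it was 22 to 23, and 22 or more of the same 23 genes were still lower under each alternative other than the filter of 5 FPKM, which tested fewer genes and left 20. A lone library in a genotype is there assumed to vary like the others. The count of members higher was 2, and 5 with no filter, 1 with the filter of 5 FPKM, equal column totals, quantile normalization or no intensity trend, and 1 to 2 with 1 library left out. The changes of low members moved with the pseudocount, to -2.04 with 0.1 and -0.36 with 5 FPKM for Axin2, 1.93 and 0.31 for Dkk2, -1.46 and -0.32 for Rspo3, -1.49 and -0.35 for Wnt2b, and with 5 FPKM to -0.72 for Wnt5a and Lgr4 and -0.47 for Tcf7l2. The labels give the genotypes no shared replicate numbers, but the file headers number the libraries of each genotype 1 and 2. With these numbers as a replicate block, also added after the data were seen, 23 members were lower and 2 higher, 32 of the other pathway genes were lower and 7 higher, and the call of no tested member changed. Same-numbered libraries had deviations that correlated at 0.183 across tested genes, and nothing in the labels says that a number marks a shared litter, batch or day. Depth is unknown, so low values have no limit beyond the spread of 2 libraries.

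Signs turned for the following log2 fold changes, and the cause was not tested. With equal column totals, which lowered the median of all genes to -0.20, they were Axin1 -0.20, Ctnnb1 -0.19, Fzd5 -0.15, Fzd9 -0.076, Sfrp4 -0.049, Wnt5b -0.053, Cby1 -0.12, Pygo2 -0.18, Ryk -0.21 and Wls -0.25. With quantile normalization they were Ctnnb1 -0.24, Fzd9 -0.21, Sfrp2 -0.0082, Ryk -0.052 and Wls -0.18. With length and GC trends removed they were Lrp5 0.10, Cby1 -0.18, Dvl1 0.22, Dvl2 0.23, Tnks 0.046, Ryk -0.062 and Wls -0.066. With 1 library left out in turn the values ran as follows: Axin1 -0.017 to 0.11, Ctnnb1 -0.014 to 0.16, Fzd5 -0.030 to 0.17, Fzd9 -0.11 to 0.20, Wnt5b -0.0093 to 0.38, Ryk -0.077 to 0.17, Wls -0.066 to 0.077 and Dvl2 -0.18 to 0.0025. Of these genes Lrp5, Sfrp2 and Tnks were called as deposited, and Ctnnb1 and Wls (limma adjusted p = 0.0262) were called lower once turned. The call of Tle1 ended in 3 and that of Tle3 in 2 alternatives, without wild-type library 1 in both cases, and that of Csnk1d without that library too.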

Other observations

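General leukocyte markers were higher in 5 of 5 cases, beside 35.2% of all tested genes. Of the 5, 2 passed the filter through knockout alone, so they had to differ. The 5 summed to 118 and 88.0 FPKM in knockout and 5.29 and 4.69 FPKM in wild type. Of 5 adipocyte markers only Cidea passed the filter, through wild type alone. It was at 0.711 and 0.585 FPKM in knockout and 7.82 and 13.2 FPKM in wild type. Skeletal muscle markers summed to 1.15 and 1.91 FPKM in knockout and to 6.81 and 8.98 FPKM in wild type. Of 4 chondrocyte markers tested, Sox9 was higher, at 10.7 and 10.3 FPKM in knockout and 0.507 and 0.636 FPKM in wild type. Comp and Hapln1 were lower and Acan did not pass the test. Sox9 passed the filter through knockout alone and Hapln1 through wild type alone, so both had to differ. Over all tested genes 30.6% were lower and 35.2% higher. No marker of T and NK cells, B cells or mesothelium reached the filter.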
